A study of Mus musculus with 8 samples.

Results

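H3K27me3 peak lists of morphine-treated and control mouse embryonic stem cells (mESCs) were compared. Every peak of the 4 ChIP-Seq libraries of the series was taken, from 4 of 8 libraries in all, and the other 4 libraries hold RNA-Seq of the same conditions. Both conditions used one mESC line that carries GFP under the Oct4 promoter, grown feeder-free on gelatin. Control cells received 0.9% NaCl and treated cells 10 µM morphine, each for 24 h, with 2 ChIP-Seq libraries per condition. The labels give a rabbit polyclonal antibody against trimethylated H3K27 and the methods of the study a rabbit monoclonal one from another supplier, so which of them made these libraries is not known. Since the transgene holds Oct4 promoter sequence, reads of its copies could not be told from reads of the endogenous Pou5f1 promoter wherever the sequences are the same. The study calls the replicates biological, but neither it nor the labels say whether they were separate cultures, so p-values measure only the spread between these libraries. The comparison asked which gene functions carry promoter peaks in each condition, how peaks rank within a library, and which peaks were found in both libraries of one condition.

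H3K27me3 is laid down by Polycomb repressive complex 2 (PRC2), in which Ezh2 or Ezh1 is the methyltransferase and Suz12, Eed, Rbbp4 and Rbbp7 are its partners. PRC1 reads the mark through its Cbx subunits. In mESCs the mark is known for CpG-rich promoters of silent developmental regulators, such as the Hox clusters, and morphine acts through opioid receptors. The RNA-Seq libraries were those of pluripotent cells: all 9 mESC markers stood between 52.0 (Tfcp2l1) and 779 (Dppa5a) CPM (RNA-Seq counts scaled to a fixed library size) per kb of locus in the control. The highest mesoderm marker was Eomes at 0.955, with T at 0.130, and the highest primitive endoderm marker was Gata6 at 1.55. Sox1 was highest for neuroectoderm at 3.92 and Tfap2c for trophoblast at 5.21, and Pax6 had no RNA value. Of the fibroblast markers, Col1a1 was at 0.521 and Thy1 at 3.79. Vim, listed as a fibroblast marker and not particular to that cell type, was at 135. In bulk libraries a peak carried by fewer cells and a weaker peak in every cell cannot be told apart.

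Control replicate 1 had 10305 peaks and control replicate 2 had 13778, while morphine replicate 1 had 8681 and morphine replicate 2 had 12282. Median widths ran from 2803 to 2911 bp. Scores grow with the significance of a peak and depend on depth, which the lists do not give. They started at 50 in each library and had medians of 83.11 to 84.21, so they are used here as rank percentiles within a library, where 100 is the highest. A promoter was the 1 kb on either side of any transcription start site (TSS) of a protein-coding gene, and 21938 genes were read. A gene without a peak in a list may still carry the mark below the threshold of the peak caller.

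Promoters of 6 genes that the comparison turns on are printed, each with 250 bases before and 50 after the RefSeq start in GRCm38.p6, which has the coordinates of mm10. The first 4 belong to genes with a promoter peak in both morphine lists and neither control list, namely the pluripotency factors Pou5f1, Klf4 and Klf2 and the PRC2 subunit Suz12. The last 2, Vezf1 and Spdya, had one in both control lists and neither morphine list. Capitals mark CpG dinucleotides, which read the same on both strands.
Pou5f1: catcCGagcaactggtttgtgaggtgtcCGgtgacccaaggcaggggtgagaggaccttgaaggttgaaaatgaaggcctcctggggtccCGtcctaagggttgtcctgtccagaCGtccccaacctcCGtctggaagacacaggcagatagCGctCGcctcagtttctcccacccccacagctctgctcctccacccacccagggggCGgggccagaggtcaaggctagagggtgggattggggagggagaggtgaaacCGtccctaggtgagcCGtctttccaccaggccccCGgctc
Klf4: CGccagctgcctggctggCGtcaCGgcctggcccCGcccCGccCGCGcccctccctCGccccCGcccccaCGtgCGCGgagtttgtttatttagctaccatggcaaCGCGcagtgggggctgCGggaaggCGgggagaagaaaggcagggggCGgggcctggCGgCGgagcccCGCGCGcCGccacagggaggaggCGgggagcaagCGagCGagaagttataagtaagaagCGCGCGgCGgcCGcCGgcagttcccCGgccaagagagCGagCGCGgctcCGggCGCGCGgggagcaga
Klf2: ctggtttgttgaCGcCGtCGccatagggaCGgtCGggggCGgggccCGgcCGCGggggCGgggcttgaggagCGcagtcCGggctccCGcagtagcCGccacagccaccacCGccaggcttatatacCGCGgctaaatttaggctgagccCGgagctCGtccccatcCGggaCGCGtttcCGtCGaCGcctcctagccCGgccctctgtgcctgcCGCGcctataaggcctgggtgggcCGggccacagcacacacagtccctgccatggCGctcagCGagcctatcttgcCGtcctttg
Suz12: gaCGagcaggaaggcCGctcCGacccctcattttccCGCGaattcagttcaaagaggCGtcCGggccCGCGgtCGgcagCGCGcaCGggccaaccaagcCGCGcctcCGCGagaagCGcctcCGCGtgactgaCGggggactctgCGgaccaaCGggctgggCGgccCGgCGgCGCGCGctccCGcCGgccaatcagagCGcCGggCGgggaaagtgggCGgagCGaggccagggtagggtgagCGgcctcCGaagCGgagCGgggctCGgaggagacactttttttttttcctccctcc
Vezf1: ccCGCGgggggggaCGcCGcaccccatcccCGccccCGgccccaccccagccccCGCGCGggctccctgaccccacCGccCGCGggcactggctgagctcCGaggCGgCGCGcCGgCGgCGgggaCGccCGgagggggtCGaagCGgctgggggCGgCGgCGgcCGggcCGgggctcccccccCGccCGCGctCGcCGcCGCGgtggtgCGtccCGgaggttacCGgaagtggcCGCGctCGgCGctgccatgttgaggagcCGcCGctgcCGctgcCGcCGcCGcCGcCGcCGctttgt
Spdya: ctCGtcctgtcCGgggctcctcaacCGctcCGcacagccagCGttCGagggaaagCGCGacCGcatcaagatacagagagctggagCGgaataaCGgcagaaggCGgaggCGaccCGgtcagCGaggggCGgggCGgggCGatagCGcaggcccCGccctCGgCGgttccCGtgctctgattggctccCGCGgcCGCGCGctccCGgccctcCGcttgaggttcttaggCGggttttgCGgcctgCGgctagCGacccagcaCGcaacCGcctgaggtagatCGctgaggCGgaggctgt
These windows lie at chr17:35505782-35506081 (+) for Pou5f1, chr4:55532426-55532725 (-) for Klf4, chr8:72318812-72319111 (+) for Klf2, chr11:79992856-79993155 (+) for Suz12, chr11:88068029-88068328 (+) for Vezf1 and chr17:71551811-71552110 (+) for Spdya. The Pou5f1 window held 11 CpGs, a number reached by 41.4% of the 32851 mouse promoter windows of RefSeq, whose median was 7. The other 5 windows were denser, with 40 CpGs in Klf4 (reached by 3.91% of promoters), 32 in Klf2 (9.52%), 41 in Suz12 (3.46%), 51 in Vezf1 (0.715%) and 38 in Spdya (4.95%). Peaks covered 168 and 300 bases of the Pou5f1 window in morphine replicates 1 and 2 and 0 bases in both controls. They covered 114 bases of the Klf4 window in both morphine libraries, and 207 and 0 bases of the Klf2 window. The Spdya window was covered over 99 and 260 bases in control replicates 1 and 2 and 0 bases after morphine. The peaks of Suz12 and Vezf1 lay downstream of their windows.

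Genes that classically carry the mark in mESCs had few peaks in these lists. No promoter of the 39 Hox cluster genes, the homeodomain factors that pattern the body axis, had a peak in any library. No peak lay inside any of the 4 clusters, and the nearest ones were 20.9 to 406 kb away. The study took the Hox region as the positive control of its ChIP-qPCR. With an uncertain antibody and empty Hox clusters, whether each listed peak marks H3K27me3 cannot be checked from the lists, and this holds for every peak described here. The 21 GATA and T-box genes, regulators of endoderm and mesoderm, had no promoter peak either. Of 121 other homeobox genes, 8 and 9 had one in the controls and 6 and 9 after morphine. Developmental transcription factors as a whole, 302 genes, had promoter peaks at 9.93% and 10.6% of their members in the controls and 9.93% and 10.3% after morphine. Beside them, 16.3% and 16.9% of all protein-coding genes had a promoter peak in the controls, as did 16.8% and 17.4% after morphine. Developmental factors were therefore below the genes at large in all 4 libraries, and the difference between conditions was -0.166 percentage points (two-sided exact permutation test, p = 1). Within the category the 51 lineage bHLH genes stood higher, with 12 members in each control and 11 and 10 after morphine. Hes2, a bHLH repressor gene, ranked at 97.7 and 98.1 in the controls and 96.9 and 98.4 after morphine. Forkhead genes had 5 and 6 of 44 members in the controls and 8 and 7 after morphine, and Foxi2 was found in the morphine libraries alone.

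Neuronal genes carried promoter peaks more often than the genes at large in all 4 libraries. Of 365 genes, 27.7% and 26.6% carried one in the controls and 29.3% and 26.6% after morphine. Axon guidance genes had 27 and 24 of 68 in the controls and 25 and 24 after morphine, led by Efnb2, an ephrin ligand, at ranks of 99.4, 99.1, 99.6 and 96.8. Slit3, a repellent ligand for Robo receptors, ranked between 94.3 and 97.4. Voltage-gated channels had 44 and 45 of 132 and then 45 and 39, with the potassium channel gene Kcnn1, whose product is gated by calcium, between 99.2 and 99.5 in the 4 libraries. Clustered protocadherins, neuronal adhesion genes, were below the genes at large, with 4, 1, 4 and 2 of 57. Neurotransmitter receptors had 22 and 24 of 100 in the controls and 29 and 27 after morphine, but 11 and 15 and then 11 and 11 at scores of at least 100. At that threshold the difference of all neuronal genes turned from 0.822 to -1.23 points. Among them the NMDA receptor subunit gene Grin2b had peaks in all 4 libraries, at ranks of 94.7 and 97.5 in the controls and 86.4 and 93.5 after morphine. The dopamine receptor gene Drd2 had a peak in both morphine libraries alone, at ranks of 72.4 and 82.7, while the kainate receptor gene Grik3 had one in both controls alone, at 28.8 and 82.3. The smallest p of an exact permutation test of 2 against 2 libraries is 0.33, and the p-values of the 36 lists were all 1 after Benjamini-Hochberg adjustment.

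Signalling ligands and receptors were also above the genes at large, with promoter peaks at 25 and 25 of 89 genes in the controls and 24 and 25 after morphine. At scores of at least 100 they had 15 and 17 and then 13 and 9, and the difference went from -0.562 to -5.62 points. Morphine replicate 2 was then at 10.1%, beside 10.3% of all genes. BMP, GDF and Nodal ligands had 9, 10, 9 and 10 of 30 members, and 7, 7, 4 and 4 at that threshold. Frizzled receptors, which bind Wnt ligands, had peaks at 5, 5, 5 and 4 of 10 members, led by Fzd9 at ranks of 97.7 to 99.2. The 19 Wnt ligand genes had 2, 1, 1 and 2. Fzd4 was found in the controls alone, at 14.3 and 72.8. Fgf15 ranked at 91.4 and 96.6 in the controls and 97.5 and 97.4 after morphine, and Bmp8a ranked between 94.1 and 98.5. Opioid genes were not empty: the delta receptor gene Oprd1 and the peptide precursor genes Pdyn and Pomc had a promoter peak in all 4 libraries, with Oprd1 at ranks of 42.2, 63.2, 66.1 and 51.9. Penk had one in control replicate 1 and in both morphine libraries, and Pnoc in morphine replicate 2. The mu receptor gene Oprm1, the classical target of morphine, had none, nor had Oprk1 and Oprl1. At the other end stood olfactory receptors, with 25, 48, 20 and 41 of 1093 genes, and vomeronasal receptors with 5, 10, 1 and 7 of 327. Cytosolic ribosomal protein genes had 2, 2, 5 and 3 of 80.

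**Figure D1:**
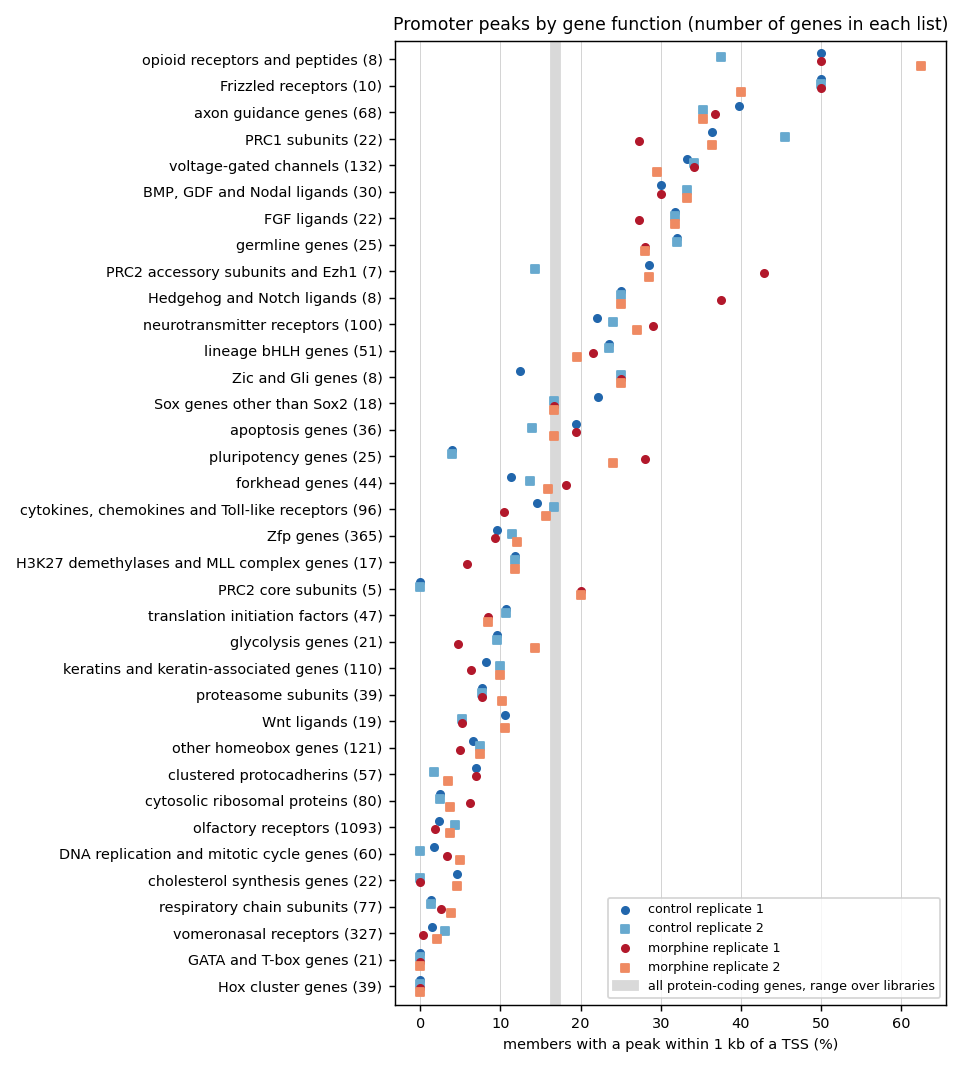
Share of the members of each of the 36 function lists with a peak within 1 kb of a TSS (x axis, percent), with 1 point per library and a grey band for the range over all protein-coding genes. Axon guidance, Frizzled and voltage-gated channel genes lie right of the band in all 4 libraries, Hox and GATA/T-box genes lie at 0, and pluripotency genes stand at 4% in both controls and at 28% and 24% after morphine.

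Peaks at promoters were most frequent at CpG-rich genes and at RNA levels from 0.1 to 10 CPM per kb. CpG-rich promoters, those with a 500 bp window of an observed to expected CpG ratio over 0.75 and a GC content over 55%, carried a peak for 22.3% and 22.7% of 11125 genes in the controls and 23.4% and 23.7% after morphine. The difference of 1.09 percentage points was larger than the pooled SD of 0.231 (exact permutation test, p = 0.33, the smallest possible). At scores of at least 100 that difference was -0.566 points. CpG-poor promoters carried one for 3.88% and 5.06% of 6545 genes in the controls and 3.22% and 4.46% after morphine, a difference of -0.626 points (exact permutation test, p = 0.667). By RNA level in the control, genes under 0.1 CPM per kb had promoter peaks at 10.8% and 11.3% in the controls, those from 0.1 to 1 at 30.9% and 30.8%, those from 1 to 10 at 26.4% and 27.6%, and those at 10 or more at 8.58% and 9.17%. The classes from 0.1 to 10 thus carried the most peaks. Each gene was placed by 1 locus of the count table, and Gapdh, a glycolytic enzyme gene in wide use as a reference, stood at 3.56 CPM per kb, below Tbp at 16.1, so the class of a gene may be too low. After morphine the share in the most expressed class was 10.9% in each library, 2.03 points above the controls (p = 0.33, exact permutation test), and the other classes differed by 0.568 points or less. Housekeeping genes (ribosomal, respiratory chain, proteasome, translation and cell cycle genes) had peaks at 3.96% and 3.63% of 303 promoters in the controls and 5.28% and 5.61% after morphine. The difference was 1.65 points and the pooled SD 0.233 (p = 0.33, exact permutation test). These are 12, 11, 16 and 17 genes. With equal numbers of strongest peaks they were 12, 9, 16 and 11, so the groups overlapped and the difference was 0.990 points, and at scores of at least 100 it was 0.495 points.

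Promoter peaks were among the strongest of each library. Their median rank was 68.2 and 72.8 in the controls and 64.9 and 69.9 after morphine, whereas peaks away from protein-coding promoters had medians of 41.2, 42.9, 39.9 and 42.3. Of the top 10% of peaks, 60.2 to 65.0% lay at such a promoter, and of the bottom 10%, 12.1 to 22.6%. The distance between both medians was 28.4 ± 2.07 points (SD, n = 2) in the controls and 26.3 ± 1.78 (SD, n = 2) after morphine, a difference of -2.09 beside a pooled SD of 1.93 (exact permutation test, p = 0.667). It was -0.620 without control replicate 2, -0.827 without morphine replicate 1, -3.55 without control replicate 1, -3.34 without morphine replicate 2 and -0.634 with equal numbers of strongest peaks, and it turned to 0.399 where a peak had to cover the TSS. The highest ranks belonged to few named genes. Gm21738, Gm10800 and Gm10801 were at 99.9 to 100. Whether their sequences occur elsewhere in the genome was not checked, so their read placement is uncertain. Next came Asmt, the last enzyme of melatonin synthesis, at 99.7 to 99.9, the pair Rrs1 and Adhfe1 under one shared peak at 99.6 to 99.8, and Baiap2, an adaptor of the actin cytoskeleton, at 99.6 to 99.8. Arpc5, an actin-nucleating subunit gene, and its neighbour Rgl1 followed under one shared peak at 99.7, 99.7, 99.3 and 99.7. Epas1, a hypoxia-inducible factor gene, came after them at 99.7, 99.7, 99.5 and 99.5 while its RNA stood at 107 and 97.2 CPM in the controls.

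Around gene starts the conditions differed in which genes had the start itself under a peak. Over all protein-coding genes 8.10% and 7.89% of starts were covered in the controls and 10.8% and 10.2% after morphine. The difference was then read by RNA level, and whether it differed between the classes was not tested. For genes under 0.1 CPM per kb the covered share was 8.21% and 7.71% in the controls and 8.30% and 8.49% after morphine, a difference of 0.440 points that turned to -0.0240 at scores of at least 100. That difference was 0.192 without control replicate 2 and 0.688 without control replicate 1. From 0.1 to 1 the covered share was 18.6% and 17.6% and then 22.3% and 21.4%, from 1 to 10 it was 9.82% and 10.1% and then 15.3% and 14.3%, and at 10 or more it was 2.57% and 2.69% and then 5.20% and 4.63%. The last 3 differences were 3.73, 4.84 and 2.29 points, and in each of the 4 classes the groups did not overlap (exact permutation tests, p = 0.33, the smallest possible). At 1 kb downstream of the start the classes from 0.1 to 1 and from 1 to 10 differed by 0.980 and 2.09 points and the class at 10 or more by 2.37 points. CpG-rich starts were covered at 9.69% and 9.02% and then 14.4% and 12.8%. Starts of intermediate CpG content were covered at 12.7% and 12.7% and then 14.6% and 15.1%. CpG-poor starts gave 2.41% and 2.81% and then 2.09% and 2.63%. Neuronal genes had 16.2% and 15.1% in the controls and 22.2% and 19.2% after morphine. The median RNA level of the neuronal list was 0.0925 CPM per kb, and that of its members with covered starts was not read. The 25 germline genes went the other way, with starts covered at 24% and 20% in the controls and 12% and 8% after morphine.

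**Figure D2:**
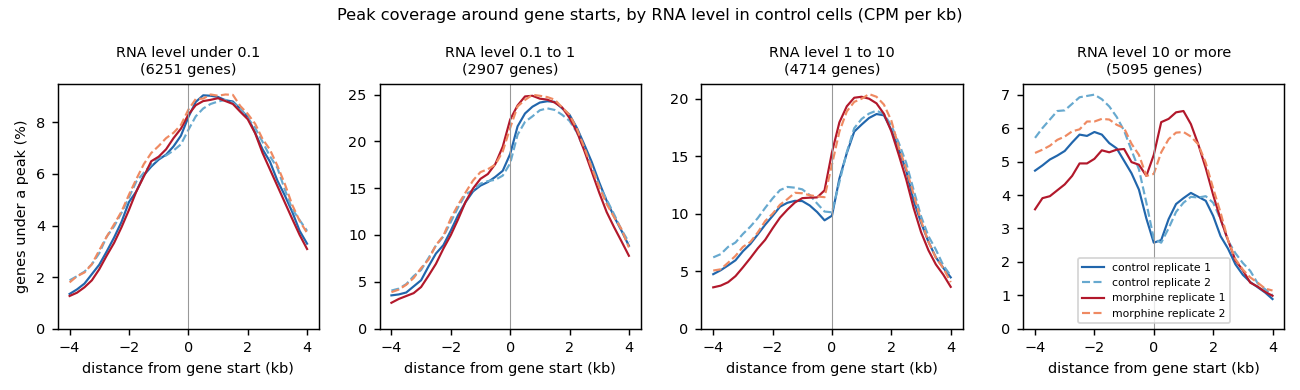
Percent of genes under a peak (y axis, scaled for each panel) at each distance from the gene start (x axis, kb, negative upstream), with 1 line per library and 1 panel per RNA level class in CPM per kb. In the 3 classes at 0.1 or more the morphine lines are above the control lines at distance 0, and in the class under 0.1 the 4 lines lie between 7.71% and 8.49% there.

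Merging the 4 lists gave 19460 sites, of which 5417 had a peak in all 4 libraries. Both control libraries alone held 872 sites and both morphine libraries alone 474, but with equal numbers of the strongest peaks these were 583 and 551, and the lists differ in length. The strongest peaks were shared: 97.8 to 99.8% of the top 10% of one library overlapped a peak of another, against 17.1 to 52.2% of the bottom 10%. At sites shared by 2 libraries, Spearman's rho of the ranks was 0.67 to 0.73, given as a description over sites of the same genome. Sites in all 4 libraries had a median GC content of 46.9%, 1.77 CpGs per 100 bp and 55.1% of them within 1 kb of a TSS. Sites in both morphine libraries alone had 46.8% GC, 1.57 CpGs per 100 bp and 47.8% near a TSS. Sites in both control libraries alone had 42.5% GC, 0.865 CpGs per 100 bp and 23.4% near a TSS. Both sets were weak within their libraries, at median ranks of 36.7 and 33.1 beside 69.4 for the sites found in all.

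**Figure D3:**
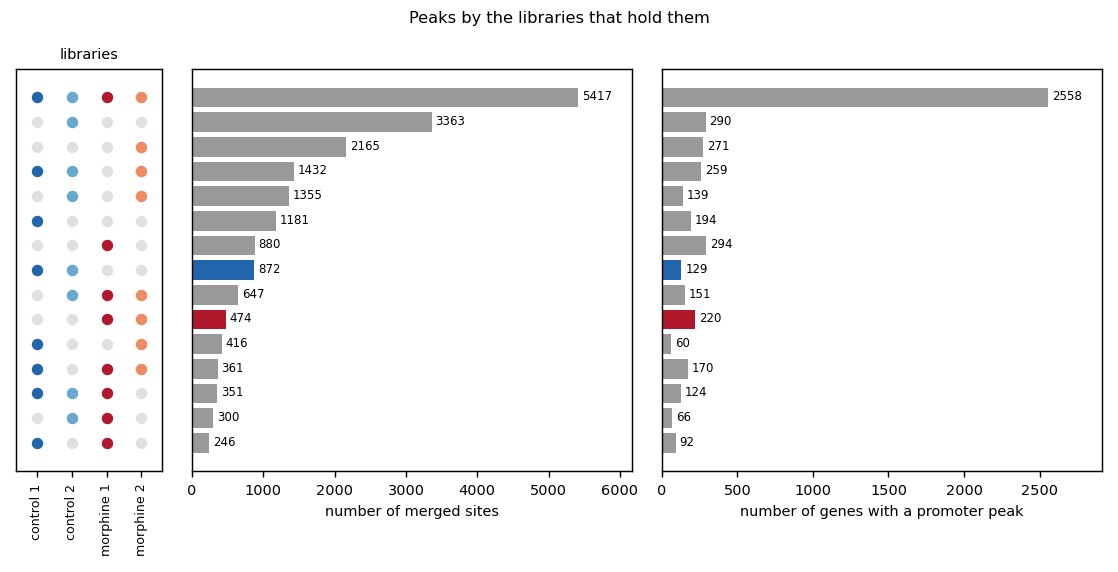
Number of merged sites (middle) and of genes with a promoter peak (right) for each combination of libraries, which the coloured dots on the left mark. The combination of all 4 libraries is the largest, with 5417 sites and 2558 genes, and the red and blue bars mark both morphine libraries alone (220 genes) and both control libraries alone (129 genes).

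At the level of genes, 2558 had a promoter peak in all 4 libraries. A further 220 genes (1% of 21938) had one in both morphine lists and neither control list, and 129 (0.588%) the reverse. The excess depended on the rule: it was 134 against 117 genes at scores of at least 100, 212 against 191 with a 3 kb promoter, 233 against 117 with equal numbers of strongest peaks and 381 against 59 where a peak had to cover the TSS. The bound of the promoter window made some of these: at 19 of the 220 genes a control peak overlapped the morphine peak but ended outside the window, and at 12 of the 129 a morphine peak did so. Fhod1, B3gnt2 and Cryzl1 among the former and Arhgap9 among the latter had such a peak in both libraries of the other condition. That left 201 and 117 genes without an overlapping peak, the morphine set and the control set of genes. Of the 173 genes with an RNA value in the morphine set, 51 were at 10 CPM per kb or more and 55 from 1 to 10, with a median of 3.19. In the control set 10 of 108 were at 10 or more and 40 from 1 to 10, with a median of 0.863. Of all 18967 genes with an RNA locus, 5095 were at 10 or more and 4714 from 1 to 10, with a median of 1.24. The shares of the 2 sets and of all genes were not tested against each other.

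The strongest promoter peaks of the morphine set lay at Trim11, a ubiquitin ligase gene, with ranks of 97.4 and 93.7, at Plk5, a polo-like kinase gene, with 96.8 and 93.4, and at Dnaaf2, needed to assemble dynein arms of cilia, with 93.7 and 89.3. Klf5 followed with 82.5 and 95.1 and Nudt4, a phosphohydrolase gene, with 87.1 and 89.9. Homer3, a scaffold of glutamate receptors, ranked at 94.7 and 76.9. These genes are CpG-rich, and their RNA was abundant at Klf5 (186 CPM in the control) and Trim11 (76.9 CPM) but low at Plk5 (1.43 CPM).

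Pluripotency genes held 4 members of that set among 25, beside 201 of all 21938 protein-coding genes (0.916%). Promoter peaks were found at 1 and 1 of the 25 genes in the controls and at 7 and 6 after morphine, a difference of 22 percentage points on a list taken up with results known (exact permutation test, p = 0.33, the smallest possible; adjusted over the 36 lists, p = 1). Over all protein-coding genes 16.3% and 16.9% had one in the controls and 16.8% and 17.4% after morphine. Nr5a2, a nuclear receptor gene, was the pluripotency gene with a peak in all 4 libraries, at ranks of 77.6, 84.7, 79.8 and 92.8. Klf2, Klf4, Klf5 and Pou5f1, which encode factors of the naive pluripotency network, had one in both morphine libraries and no overlapping control peak. At Pou5f1 (chr17:35506018-35510772, + strand) the peaks ran from -104 to 1853 bp and from -556 to 2002 bp of the start, at ranks of 58.3 and 89.0. At Klf4 (chr4:55527143-55532466, - strand) they ran from -73 to 2017 bp and from -73 to 2127 bp, at ranks of 52.1 and 56.9. The control libraries had a peak upstream of the same gene, from -4535 to -1571 bp and from -4820 to -1196 bp, which the morphine lists lack. At Klf2 they ran from -128 to 2268 bp and from 589 to 2767 bp, and at Klf5 from 106 to 2364 bp and from 289 to 2522 bp, whereas a peak upstream of Klf5, at -20563 to -17192 bp in control replicate 1, was in all 4 libraries. Sox2, Nanog, Esrrb, Zfp42 and Tfcp2l1 had no promoter peak in any library. Limited to scores of at least 100 the counts were 1, 1, 4 and 4, and the 4 members of the set became 2, as both peaks of Klf4 and that of Pou5f1 in morphine replicate 1 scored 85.7, 91.8 and 93.6. With a 3 kb promoter the counts were 4, 3, 9 and 7, with 3 genes in both morphine lists alone.

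**Figure D4:**
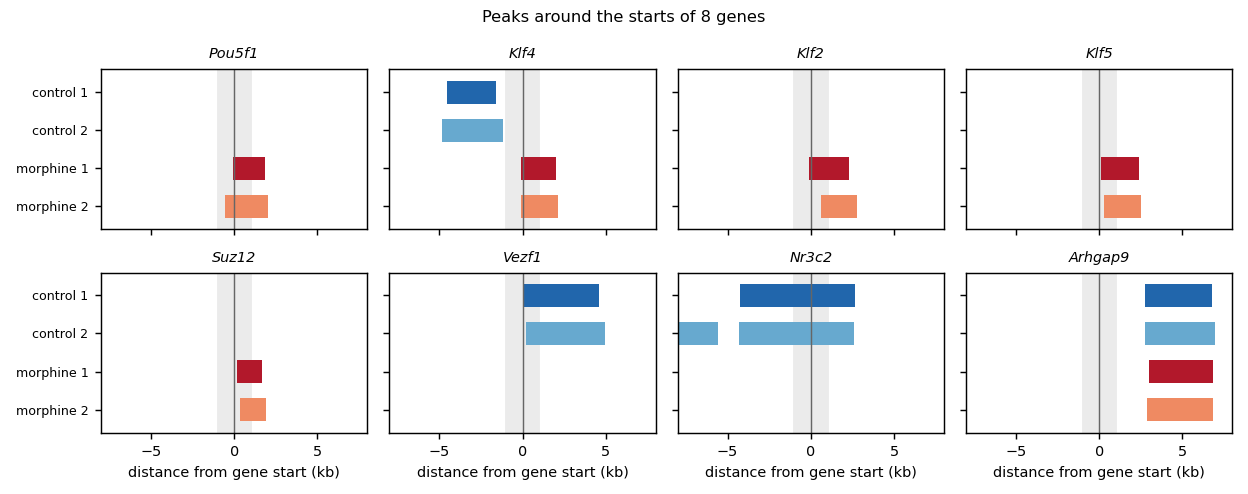
Peaks of each library around the starts of 8 genes (x axis, distance from the start in kb, negative upstream), drawn as bars from peak start to peak end with the promoter window shaded. At Klf4 the control bars end at -1571 and -1196 bp and both morphine bars begin at -73 bp, and at Arhgap9 all 4 libraries share a peak that lies downstream of the start shown.

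Genes of the Polycomb complexes themselves were read in full. Of the 5 PRC2 core genes, Suz12 (chr11:79993106-80034123, + strand) had a promoter peak in both morphine libraries, from 147 to 1672 bp and from 352 to 1909 bp of its start, and in neither control. Both were among the weaker peaks of their libraries, with scores of 62.7 and 53.0 and ranks of 24.3 and 6.72, and neither reached a score of 100. With equal numbers of strongest peaks the one in morphine replicate 2 was lost and Suz12 left the set of genes with a peak in both morphine libraries. A peak upstream of Suz12, at -21026 to -18936 bp in control replicate 1, was in all 4 libraries. It ranked at 68.9 and 83.7 in the controls and 94.8 and 94.6 after morphine. Control replicate 2 had a further peak at -18957 to -17333 bp, at a rank of 11.5. Eed, Ezh2, Rbbp4 and Rbbp7 had no promoter peak in any of the 4 lists. Among accessory subunits, Phf19, a reader of methylated histone H3, ranked at 72.5 and 81.6 in the controls and 87.6 and 89.2 after morphine, and Epop was found in 3 libraries. The PRC1 genes had more, with 8, 10, 6 and 8 of 22. Pcgf5 stood at 93.6, 98.7, 93.1 and 98.2 and Phc2 at 85.2, 96.4, 84.6 and 91.0. Cbx2, which reads the mark, ranked at 98.0 and 98.9 in the controls and 80.6 and 70.5 after morphine.

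The control set was led by Vezf1 (chr11:88068279-88084729, + strand), a zinc finger factor of vessel development, whose peaks ran from 67 to 4581 bp and from 232 to 4923 bp of its start at ranks of 97.6 and 92.0. Nr3c2, the mineralocorticoid receptor gene, followed at 92.4 and 92.9, and Spdya, an activator of cyclin-dependent kinases, at 90.3 and 88.6. Il12rb2, a cytokine receptor subunit gene, ranked at 85.1 and 84.2, Sema4c, a semaphorin gene, at 82.3 and 81.6, and Mapt, the gene for tau, at 92.5 and 53.8. Cdh1, which encodes the E-cadherin of epithelia and mESCs, was also in this set at 65.2 and 75.4. 

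For the 2558 genes with a promoter peak in all 4 libraries, the peaks were ranked anew among these genes. In 540 of them (21.1%) both morphine ranks were above both control ranks, and in 537 (21%) below. Ranking within the set gives each library the same mean rank, so no general gain or loss can be read from these ranks. Rhbdf2, a regulator of growth factor shedding, had the largest gain, from 42.3 and 6.9 in the controls to 95.9 and 92.4 after morphine. Dscaml1, a neural adhesion molecule, went from 13.1 and 30.5 to 90.5 and 83.8, and Srf, a transcription factor of the actin response, from 12.5 and 7.3 to 81.6 and 62.1. Pde3b, a cyclic nucleotide phosphodiesterase gene, went from 95.8 and 90.6 to 37.6 and 18.5, Ptpra from 71.5 and 87.1 to 3.4 and 35.3, and Foxo1 from 70.7 and 89.8 to 6.1 and 47.6. Bmp4, a ligand of early patterning, had 82.5 and 67.9 in the controls and 58.6 and 21.5 after morphine, and Cbx2 95.2 and 96.6 and then 58.5 and 31.7. Control and morphine ranks did not overlap for these 8 genes, which were named for the size of the shift or from the lists, so no test is given.

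**Figure D5:**
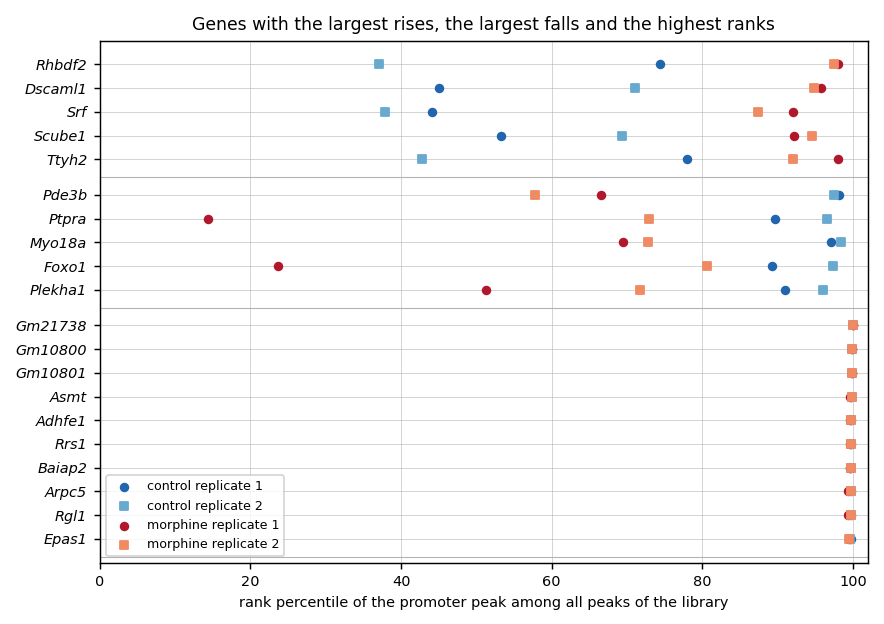
Rank percentile of the promoter peak among all peaks of its library (x axis, 100 is the highest score) for the 5 genes with the largest gain in rank, the 5 with the largest loss and the 10 of highest mean rank, with 1 point per library. Morphine and control points do not overlap for the first 10 genes, which were chosen for that, and the 4 points of each of the last 10 lie close to 100.

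RNA changes of the genes with condition-specific peaks were read beside those of all loci. Over all loci 309 of 20350 (1.52%) passed an FDR of 0.05 in edgeR's quasi-likelihood test. Of all 220 genes with a promoter peak in the morphine lists alone, overlapping peaks included, 149 were tested and 3 passed (2.01%), of the 129 of the controls 1 of 94 (1.06%) and of the genes with a peak in all libraries 15 of 1871 (0.802%), while genes without a promoter peak gave 168 of 8911 (1.89%). These shares were not tested against each other. The 3 were Klf2, Atad5 and Sirt1, named after their values were seen. Klf2 RNA was 149 and 143 CPM in the controls and 188 and 179 CPM after morphine, with no overlap, and rose by 0.33 ± 0.05 on the log2 scale (SE; edgeR adjusted p = 0.0151). Sirt1, a deacetylase gene with promoter peaks at ranks of 31.9 and 30.5 after morphine, fell from 249 and 239 to 183 and 211 CPM (log2 fold change -0.31 ± 0.06 SE; edgeR adjusted p = 0.0419). Atad5, which unloads the replication clamp, had a log2 fold change of -0.24 ± 0.05 (SE; edgeR adjusted p = 0.0498). The gene of the controls was Smc1b, a meiotic cohesin subunit gene, with 17.4 and 18.4 CPM in the controls and 11.6 and 12.9 CPM after morphine (log2 fold change -0.55 ± 0.09 SE; edgeR adjusted p = 0.0198). Without morphine RNA-Seq replicate 1 none of these 4 passed, with adjusted p-values of 0.205 to 0.438, and that fit called 13 loci. The log2 fold changes were then 0.29 for Klf2, -0.21 for Sirt1, -0.20 for Atad5 and -0.48 for Smc1b.

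Most of the other genes named for their peaks and read here did not pass the RNA test. Pou5f1 had 1183 and 1272 CPM in the controls and 1507 and 1370 CPM after morphine (log2 fold change 0.23 ± 0.05 SE; edgeR adjusted p = 0.0525), and passed in 5 of 8 alternative fits (DESeq2 adjusted p = 0.00188). Suz12 had 491 and 463 and then 399 and 445 CPM, with a log2 fold change of -0.18 ± 0.06 (SE; edgeR adjusted p = 0.107), and passed in 4 of 8 alternative fits (DESeq2 adjusted p = 0.0328). Ezh2, without a promoter peak, had -0.15 ± 0.05 (SE; edgeR adjusted p = 0.117). Klf4 and Klf5 were at -0.028 ± 0.047 and 0.038 ± 0.049 (SE; edgeR adjusted p = 0.785 and 0.715). Vezf1, whose peak was in the controls, was at -0.13 ± 0.06 (SE; edgeR adjusted p = 0.258). Bmp4, whose peak ranked lower after morphine, rose from 68.3 and 71.5 to 87.8 and 85.4 CPM (log2 fold change 0.31 ± 0.05 SE; edgeR adjusted p = 0.0263), and without morphine RNA-Seq replicate 1 had a log2 fold change of 0.29 that did not pass (adjusted p = 0.287). Epop, with a promoter peak in 3 libraries, rose from 259 and 274 to 370 and 327 CPM (log2 fold change 0.39 ± 0.06 SE; edgeR adjusted p = 0.0144), and without the same library had 0.30 (adjusted p = 0.146).

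Away from promoters, 2120 sites over 3 kb from any TSS were in all 4 libraries, 222 in both morphine libraries alone and 581 in both control libraries alone, counts from lists of unequal length. Their median distances to a TSS were 15.01, 20.1 and 19.2 kb. The distal control sites had a lower GC content, 41.3%, than the morphine sites at 43.8% and the shared sites at 44.5%. The strongest distal site of all 4 libraries was chr3:96043571-96045993, 12473 bp from the nearest TSS, at Vps45, with ranks of 99.97 to 100. Of the distal morphine sites the strongest was chr19:44678799-44684458, at ranks of 75.1 and 80.3, and of the control sites chr14:4097695-4103483, at 81.1 and 77.1, a site of which 60.6% was repeat sequence.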

How the data were processed

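ChIP-Seq peaks of 4 libraries (control and morphine, 2 each) and RNA-Seq counts of 4 further libraries were used, with groups taken from the labels. The authors aligned ChIP-Seq reads to mm10 with Bowtie2 2.3.5.1 and called peaks per library with MACS, and the deposited peak score was used as a rank within a library. The control library given to MACS is not given in the sources used here. A sequencing minimum is stated in the methods of the study, but the lists hold no depth for each library. The labels and the paper name different antibodies. The RNA-Seq file holds the raw counts that the authors deposited for each locus (HISAT2 2.1.0, StringTie 1.3.6, featureCounts 1.6.4), with totals of 25081266 to 29531096. Whether counting used strand is not given, so overlapping loci are uncertain.

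Peaks were matched to GENCODE vM21 starts by an overlap of 1 bp. Promoters were CpG-rich, intermediate or poor (no 500 bp window over 0.48 observed to expected). Counts were fitted over all loci by edgeR 4.0.16 (filterByExpr, TMM, quasi-likelihood, Benjamini-Hochberg) in R 4.3.3, with DESeq2 1.42.0 as an alternative. CPM are on TMM library sizes. RNA names came from loci with 1 gene name (39511 loci, and 1335 with several names were left out). They matched 18967 genes, of which 3541 had more than 1 locus and took the one with the highest total. Python 3.11.15 with scipy 1.17.1 was used for the peaks. Scripts were tested on simulated data. 

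Shares per library entered exact permutation tests (two-sided). Named genes were, per list, up to 4 of highest mean rank and those of one condition alone, plus over all genes the 10 highest ranks, the 10 highest of each condition alone and the 5 largest shifts each way. Genes and lists were chosen with earlier results of these data known, and gene-start coverage by RNA level was added after the data were seen. In 36 lists of 3221 genes, 1 symbol had no match. Alternatives were a score of at least 100, equal numbers of strongest peaks, 50% overlap of both peaks, a 3 kb promoter, a covered TSS, all annotated genes and each library left out.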

Additional observations from a re-analysis of the deposited data

How the results depend on the processing

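Among the main differences (morphine minus control, percentage points), scores of at least 100 turned 4: genes with a promoter peak to -0.470, CpG-rich promoters to -0.566, developmental factors to 0.331 and covered starts of genes under 0.1 CPM per kb to -0.0240. Of the lists, neuronal genes turned to -1.23, neurotransmitter receptors to -2, zinc finger genes to -1.23, keratins to 0.455 and respiratory chain subunits to -0.649 at the same threshold. Other settings turned further lists, among them germline genes to 2 and voltage-gated channels to 0.758 with equal numbers of peaks, and axon guidance genes to 11.03 and PRC1 genes to 11.4 with a covered TSS. Scores of at least 100 left 180 and 307 sites and 134 genes of morphine alone, and 284 and 278 genes of higher and lower rank. A 3 kb promoter gave -0.121 for the promoter share of all genes. With 1 library left out that difference ran from 0.109 (without morphine replicate 2) to 0.807 (without morphine replicate 1). Requiring a covered TSS turned the rank distance to 0.399 and gave 0.331 for developmental factors, 381 and 59 genes of morphine and control alone, and 279 and 249 rank shifts. Equal numbers of peaks gave 0.497 for developmental factors, and all annotated genes gave 216 of control alone. With 1 library left out, developmental factors ranged from -0.497 to 0.166 (0.166 without control replicate 2, 0 without morphine replicate 1), sites of morphine alone from 835 to 2643, of control alone from 1225 to 4236, genes of morphine alone from 371 to 514, of control alone from 253 to 419, and rank shifts from 941 to 1001 higher and 922 to 996 lower, counts that grow because fewer libraries must meet the rule.

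RNA calls numbered 669 in DESeq2 and 1657 without a count filter. With 1 library left out they ranged from 13 to 1619 (13 without morphine replicate 1, 604 without morphine replicate 2, 1619 without control replicate 2), the lone library being assumed to vary like the others. Over the same omissions the log2 fold change of Eed ran from -0.13 to 0.0058 and that of Cbx2 from -0.072 to 0.12, both turning without morphine replicate 1. The cause of these changes was not tested.

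The replicate numbers are not said to mark a shared batch. Same-numbered ChIP-Seq libraries deviated with r = 0.174 over 5417 sites and RNA-Seq libraries with r = 0.0058. With the replicate block the promoter share difference was 0.458 (p = 0.5, the smallest a sign permutation allows), rank shifts 784 and 760, and RNA calls 1128. Housekeeping genes (0.495 to 2.15 points) and the covered starts of all genes (1.197 to 2.76) and of the most expressed class (1.31 to 2.57) kept their direction in each alternative run. Peak lists carry no read depth, which limits what a missing peak means.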

Other observations

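Peaks were not spread evenly over chromosomes. Chromosome 11 held 88.4 and 118 peaks per 10 Mb in the controls and 80.8 and 108 after morphine, and chromosome 8 held 71.6 and 104 and then 57.3 and 93.0. The highest other autosome had 46.9, 56.5, 40.5 and 52.7 peaks per 10 Mb in the same libraries, and chromosome X 8.24, 10.7, 5.67 and 8.42. Of the genes described, Klf2, Nr3c2, Cdh1, Fhod1 and Homer3, among others, lie on chromosome 8 and Suz12, Cbx2, Trim11, Vezf1, Baiap2, B3gnt2, Mapt and Rhbdf2, among others, on chromosome 11. The copy number of these chromosomes in the line was not analysed here, and peaks and ranks at these genes were not corrected for it.

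Most genes of the morphine set (201 genes) and the control set (117 genes) lay outside the named pluripotency and Polycomb factors, and some of them follow. Gins3, a subunit of the replicative helicase complex, had a promoter peak in both morphine libraries alone at ranks of 78.7 and 77.5, and Casp8, an initiator caspase gene, at 74.8 and 89.1. Jag1, a Notch ligand gene, did so at 3.70 and 7.19. Rpl10l, a ribosomal protein gene of the germline, had one in both controls alone at 67.5 and 70.3. Germline genes carried promoter peaks at 8, 8, 7 and 7 of 25 promoters, with Stk31 at 80.3 or above in each library and Tex19.1 at 78.1, 81.2, 71.9 and 94.6.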
